A study of Mus musculus with 6 samples.

Results

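The 36 genes described here include *Trp53*, which encodes the transcription factor p53, and its family members *Trp63* and *Trp73*. The others are inhibitors of p53 and genes listed as p53 targets. Whether p53 activates each listed target in these cells was not tested. The 36 genes were found by gene symbol in the deposited table, where all 36 were present among 20405 genes. *Ppm1d* had 2 probe sets, and the one with the higher mean over the 6 arrays represents it. RNA was compared between M0505 cells, an ovarian surface epithelial line of FVB/N mice used at early passage, and STOSE cells, the line that arose when M0505 cells transformed during long culture. Each line was measured on 3 Affymetrix Mouse Gene 1.0 ST arrays, named as biological replicates. Both lines grew untreated in the same medium with serum, EGF and antibiotics, and no DNA-damaging agent is named in the labels. STOSE is 1 line derived from 1 parent, so a difference between the lines is one between these cultures. The labels do not say that the replicates came from separate cultures, and the p-values measure only the spread between these arrays.

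p53 is kept at a low level because MDM2, a ubiquitin ligase, marks it for degradation, while MDM4 blocks its activity. Stress such as DNA damage or oncogene signaling releases p53, which then binds response elements near its target genes. The targets stop the cell cycle, start cell death, supply nucleotides and repair enzymes, or limit growth signaling, and *Mdm2* is itself a target, which closes a feedback loop. Loss of p53 function is a hallmark of high-grade serous ovarian cancer. The authors reported no mutation in the p53 exons of STOSE cells, and p53 protein in tumors grown from them. p53 is regulated largely through the stability of its protein, which arrays do not read. Several targets also respond to other factors, among them the FOXO factors for *Sesn1* and *Ccng2*.

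A p53 response element is a pair of copies of a short repeat unit. The sequences below are shown because they place that unit, in capitals, in the promoters of genes whose values follow. They come from RefSeq promoter windows of GRCm38.p6, which run from 250 bases before a transcript start to 50 bases after it. They are written 5′ to 3′ on the strand of the gene. All 5 sites lie before the start that defines their window, and exon annotation was not used here.
*Sesn1*, chr10:41887241-41887287, plus strand: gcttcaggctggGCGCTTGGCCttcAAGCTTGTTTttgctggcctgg
*Gadd45a*, chr6:67037426-67037475, minus strand: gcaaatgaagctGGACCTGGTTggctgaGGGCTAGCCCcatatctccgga
*Ccng1*, chr11:40755450-40755493, minus strand: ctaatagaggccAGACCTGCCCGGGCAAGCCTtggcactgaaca
*Mdm2*, chr10:117710920-117710959, minus strand: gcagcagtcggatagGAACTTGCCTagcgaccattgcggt
*Trp53*, chr11:69580269-69580308, plus strand: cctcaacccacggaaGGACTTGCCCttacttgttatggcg
*Sesn1* and *Gadd45a* each held a full element with 2 mismatches to the consensus, *Ccng1* held one with 1 mismatch, and *Mdm2* and *Trp53* each held 1 exact copy of the repeat unit. *Ccng1* was chosen for display after its values were seen, as a gene with a closer match whose RNA barely differed. *Gtse1*, which is not displayed, also held a full element with 1 mismatch, and its RNA was higher in STOSE cells (log2 fold change 0.86). The *Sesn1* element belongs to the window of the downstream one of its 2 listed starts, so it falls inside the gene as read from the upstream start.

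The window was searched for the p53 repeat unit, which is its own reverse complement, so that 1 strand covers both. Of the 36 members, 27 had a window, and the 9 without one were *Trp63*, *Pmaip1*, *Zmat3*, *Perp*, *Tnfrsf10b*, *Rrm2b*, *Xpc*, *Ddb2* and *Trp53inp1*. An exact repeat unit was present for 10 of the 27 genes (37.0%), against 9.55% of the 27025 genes in the RefSeq table. They were *Aen*, *Ccng1*, *Ei24*, *Gadd45a*, *Gtse1*, *Mdm2*, *Polk*, *Ppm1d*, *Sesn1* and *Trp53*. A full element, with at most 2 mismatches in all and a spacer of at most 13 bases, was present for 5 of the 27 (18.5%), against 4.71% of all genes. These were *Ccng1*, *Gadd45a*, *Gtse1*, *Sesn1* and *Trp73*. Among the 6 members with a window that differed at least 2-fold between the lines, 2 held an exact repeat unit, as did 8 of the 21 that did not. A full element was present for 2 of these 6 and 3 of these 21. Most members were listed as p53 targets in advance, so these shares do not test whether p53 acts on them in these cells. A match is not a proven binding site, and elements outside the window, such as the intronic element of *Mdm2*, were not searched.

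Over the 36 members, expression in STOSE cells was lower more often than higher. A gene was called changed at a limma adjusted p under 0.05, adjusted over all 20405 genes, and a fold change of at least 2. By that rule 6 members were lower (16.7%), against 7.59% of all genes, and 1 was higher (2.78%), against 4.90% of all genes. The 6 were *Sesn1*, *Trp53inp1*, *Ccng2*, *Btg2*, *Gadd45b* and *Gadd45a*, and the 1 was *Plk2*. At the adjusted p alone, 20 members were lower (55.6%), against 24.8% of all genes, and 7 were higher (19.4%), against 31.6% (56.5% of all genes in either direction). The arrays of the lines did not overlap for 30 members, of which 9 were higher (37.6% of all genes) and 21 lower (27.0%), against 64.6% of all genes in either direction. Over all 36 members, 24 (66.7%) lay within 0.5 of 0 on the log2 scale, against 70.6% of all genes. The median log2 fold change of the members was −0.20, against 0.08 for all genes. Centring each array on the median of all genes added 0.20 to every log2 fold change, which put the median of the members at −0.0037 and that of all genes at 0.28, with the same gap of −0.28 between them. After that centring 14 members were higher, against 62.4% of all genes, and 13 were lower, against 18.6%.

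**Figure D1:**
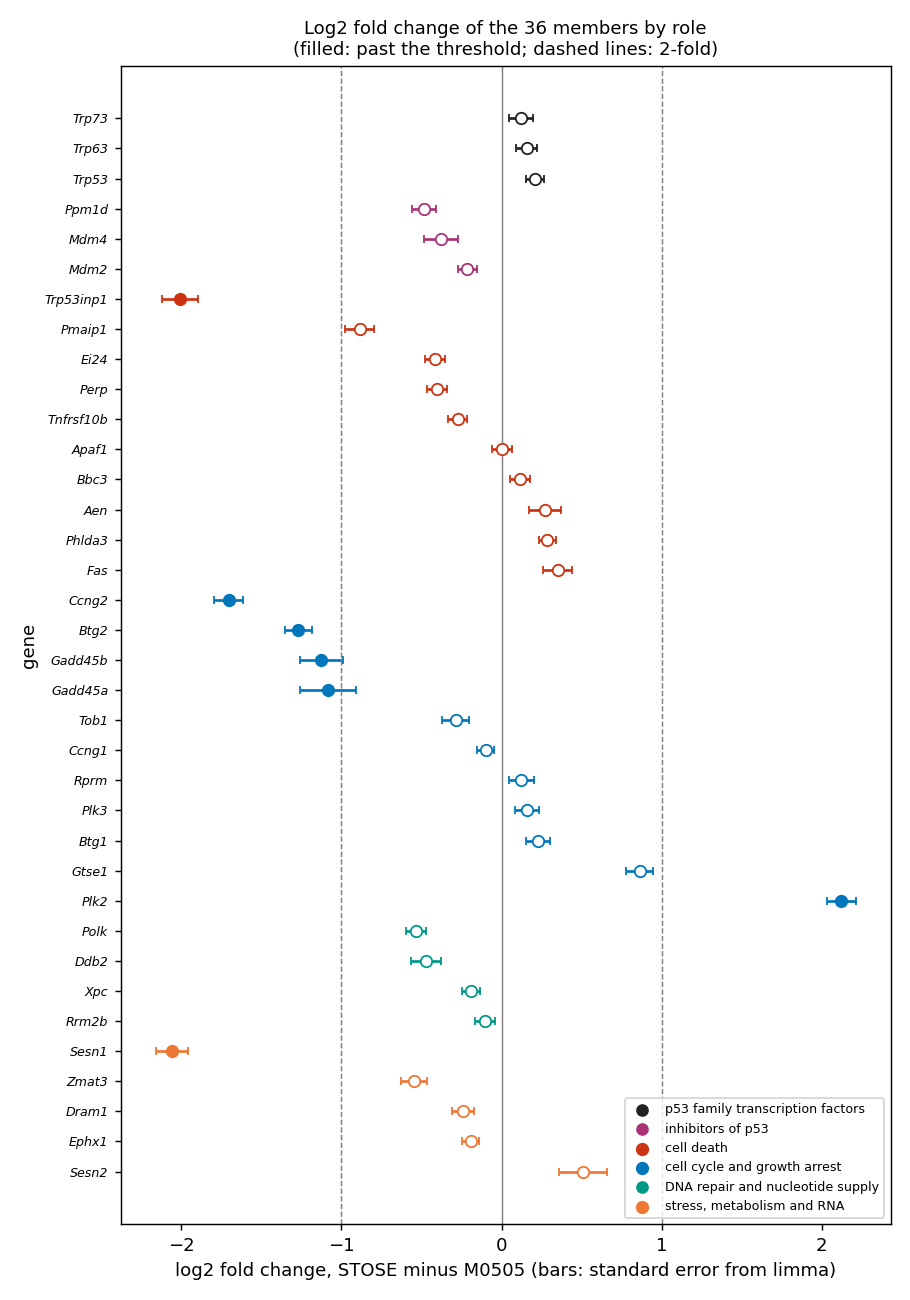
Log2 fold change (horizontal axis, STOSE minus M0505) of each of the 36 members (vertical axis), grouped and colored by role, with the standard error from limma as bars and filled circles for genes past the threshold. Beyond the dashed lines at 2-fold lie 6 genes on the lower side and *Plk2* on the higher side.

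*Trp53* RNA was abundant in both lines and slightly higher in STOSE cells. Its log2 values were 11.05, 11.00 and 10.97 on the M0505 arrays and 11.24, 11.21 and 11.20 on the STOSE arrays. The groups did not overlap, and the log2 fold change of 0.21 (SE 0.06, adjusted p = 0.0116 in limma) corresponds to 1.16-fold. *Trp53* lies on chromosome 11, whose 1535 genes had a median log2 fold change of 0.11, and the part that chromosome number plays was not tested. In these bulk cultures, fewer cells with an RNA and less RNA per cell cannot be told apart.

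*Trp63* and *Trp73* encode relatives of p53 that act mainly in epithelial and neural development. *Trp63* ranged from 5.11 to 5.17 in M0505 cells and from 5.22 to 5.41 in STOSE cells. The log2 fold change was 0.16 and did not pass the test (limma adjusted p = 0.0793). *Trp73* ranged from 5.09 to 5.17 in M0505 cells and from 5.12 to 5.36 in STOSE cells, with a log2 fold change of 0.12 (adjusted p = 0.201). Both lay close to background, as 1.59% to 1.85% of the olfactory receptor probe sets, taken to be silent in these cells, were brighter.

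All 3 inhibitors of p53 were lower in STOSE cells by less than 2-fold. *Mdm2* had log2 values of 10.16, 10.05 and 10.07 in M0505 cells and 9.89, 9.86 and 9.90 in STOSE cells. Its arrays did not overlap between the lines, and its log2 fold change was −0.21 (SE 0.06, adjusted p = 0.0130 in limma). After centring on the median of all genes the value was −0.01 and did not pass the test (adjusted p = 0.830). *Mdm4* had values of 9.14, 9.04 and 8.86 in M0505 cells and 8.83, 8.61 and 8.48 in STOSE cells. The lowest M0505 array lay just above the highest STOSE array, and the log2 fold change was −0.38 (standard error 0.11, adjusted p = 0.0160). It missed the test after centring (−0.18, adjusted p = 0.126), and without M0505 replicate 1 (adjusted p = 0.0537), M0505 replicate 2 (0.0536) or STOSE replicate 3 (0.0542). *Ppm1d*, which encodes the phosphatase WIP1 that removes activating phosphates from p53, had a log2 fold change of −0.48 (standard error 0.08, adjusted p = 6.71e-04). Its dimmer probe set read −0.07 and did not pass the test (adjusted p = 0.456), so the probe sets of this gene disagree.

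**Figure D2:**
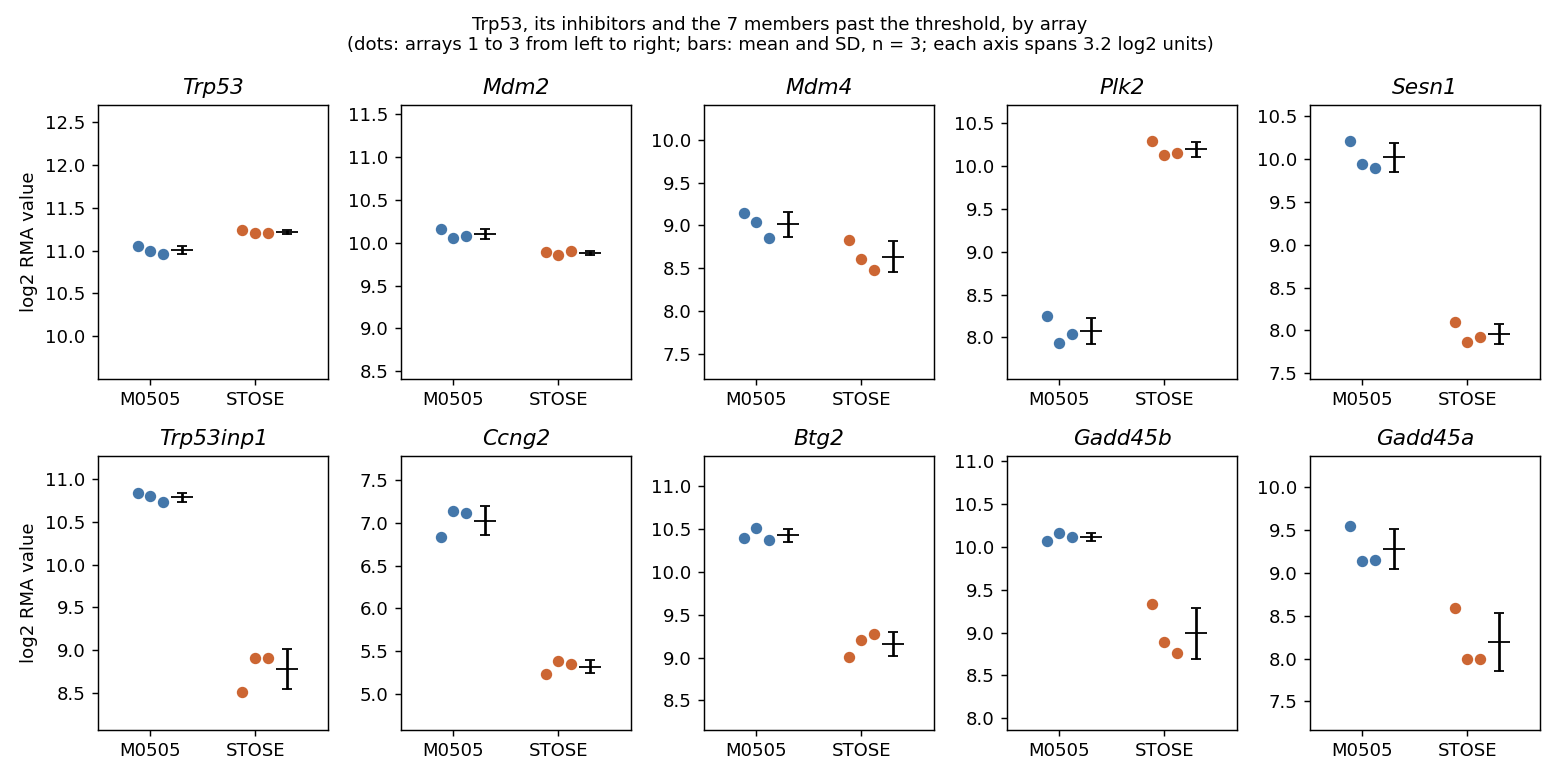
Log2 RMA value (vertical axis, 3.2 log2 units in every panel) of *Trp53*, *Mdm2*, *Mdm4* and the 7 members past the threshold on each M0505 array (blue) and STOSE array (orange), with the mean and SD of each line (n = 3) in black. The lines are apart in all 10 panels, by little in the panels of *Trp53*, *Mdm2* and *Mdm4*.

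The genes of cell cycle and growth arrest held 5 of the 7 members past the threshold. Of 11 such genes 4 were called lower (36.4%, against 7.59% of all genes) and 1 was called higher (9.09%, against 4.90%). The other 6 were not past the threshold. *Ccng2* encodes an atypical cyclin that goes with growth arrest. It had log2 values of 6.83, 7.14 and 7.11 in M0505 cells and 5.23, 5.38 and 5.35 in STOSE cells. All STOSE arrays were lower, by 3.26-fold (−1.70 on the log2 scale with a standard error of 0.09, and an adjusted p of 1.38e-06 in limma). Its STOSE mean came close to background, with 1.50% of the olfactory receptor probe sets brighter.

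*Btg2* encodes an antiproliferative protein that binds the deadenylase machinery of messenger RNA. Its values were 10.40, 10.52 and 10.37 in M0505 cells and 9.00, 9.20 and 9.27 in STOSE cells. Every STOSE array lay at least 1 log2 unit below every M0505 array. The gene was 2.41-fold lower (−1.27 on the log2 scale with a standard error of 0.08, and an adjusted p of 4.05e-06 in limma).

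*Gadd45a* and *Gadd45b* encode small stress sensors that bind p38 and JNK pathway kinases and cell cycle proteins. *Gadd45b* had values of 10.07, 10.17 and 10.12 in M0505 cells and 9.33, 8.89 and 8.77 in STOSE cells. The M0505 arrays were close together and STOSE replicate 1 was the highest of its line, and the gene was 2.18-fold lower (−1.12 on the log2 scale with a standard error of 0.13, and an adjusted p of 1.30e-04 in limma). *Gadd45a* had values of 9.55, 9.13 and 9.16 in M0505 cells and 8.59, 8.00 and 8.00 in STOSE cells. Replicate 1 was the highest array in both lines by a clear margin. The log2 fold change was −1.08 (standard error 0.18, adjusted p = 8.64e-04). It fell short of 2-fold without M0505 replicate 1 (−0.95), without STOSE replicate 2 (−0.98) and without STOSE replicate 3 (−0.99). After centring on the median of all genes both *Gadd45a* (−0.88) and *Gadd45b* (−0.92) were under 2-fold.

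*Plk2*, which encodes a polo-like kinase of centriole duplication and the stress response, moved the other way. Its values were 8.24, 7.94 and 8.04 in M0505 cells and 10.29, 10.14 and 10.16 in STOSE cells. The groups were far apart, and the gene was 4.35-fold higher in STOSE cells (2.12 on the log2 scale with a standard error of 0.09, and an adjusted p of 3.56e-07 in limma). It ranked 162 among the 1000 genes called higher.

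*Gtse1*, a gene expressed in G2 and S phase whose product moves p53 out of the nucleus, came next among the higher members. Its log2 values were 7.79, 7.63 and 7.46 in M0505 cells and 8.50, 8.48 and 8.48 in STOSE cells. Its log2 fold change of 0.86 (SE 0.09, adjusted p = 4.42e-05 in limma) was under 2-fold, and was 1.06 after centring on the median of all genes. A list of 20 mitotic and S phase genes was read beside *Gtse1*. p53 is known to repress these genes indirectly, and they include *Cdc20* (2.04) and *Nek2* (1.74). All 20 were higher in STOSE cells at the adjusted p, against 31.6% of all genes. Of them 12 (60.0%) were at least 2-fold higher, against 4.90% of all genes. The summed level of that list was 13.45 to 13.68 (log2) on the M0505 arrays and 14.52 to 14.55 on the STOSE arrays. The authors reported that STOSE cells grew faster than M0505 cells and had a larger share of cells in S phase. The parts of growth rate and of p53 in the results for *Gtse1* and for this list were not tested.

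The remaining arrest genes differed little. *Ccng1* encodes cyclin G1, which helps return p53 to a low level, and is a widely used readout of p53 activity. Its values were 11.69, 11.71 and 11.68 in M0505 cells and 11.57, 11.61 and 11.60 in STOSE cells. The lines did not overlap, yet the log2 fold change of −0.10 (standard error 0.05) did not pass the test (limma adjusted p = 0.139). *Tob1*, an antiproliferative relative of *Btg2*, was at −0.29 (adjusted p = 0.0200), and *Btg1* at 0.23 (adjusted p = 0.0294). *Plk3* (0.16) and *Rprm* (0.12), which encodes the G2 arrest protein reprimo, did not pass the test. The *Rprm* probe set was close to background, with values from 5.11 to 5.42 over all arrays.

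Of the 10 cell death genes 1 was called lower (10%, against 7.59% of all genes) and 0 were called higher (against 4.90%). The gene called lower was *Trp53inp1*. It encodes a stress protein that promotes p53-dependent death and autophagy. Its log2 values were 10.84, 10.80 and 10.73 in M0505 cells and 8.51, 8.91 and 8.91 in STOSE cells. STOSE replicate 1 was the lowest array, and all STOSE arrays were below all M0505 arrays. The gene was 4.02-fold lower (−2.01 on the log2 scale with a standard error of 0.11, and an adjusted p of 1.50e-06 in limma), and leaving out any one array gave log2 fold changes of −2.07 to −1.87.

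*Pmaip1* encodes NOXA, a BH3-only protein that neutralizes MCL1. It ranged from 7.01 to 7.23 in M0505 cells and from 6.09 to 6.36 in STOSE cells, a log2 fold change of −0.89 (SE 0.09, adjusted p = 5.70e-05 in limma) that was under 2-fold. *Bbc3* encodes PUMA, a BH3-only protein that binds all antiapoptotic BCL2 proteins. Its log2 fold change of 0.11 did not pass the test (adjusted p = 0.152). *Apaf1*, the scaffold of the apoptosome, was at 0.00 (standard error 0.06, adjusted p = 0.987).

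Of the death receptor genes, *Fas* was higher in STOSE cells by 0.35 (adjusted p = 0.0103) and *Tnfrsf10b*, the mouse TRAIL receptor, lower (−0.27, adjusted p = 0.00524). *Perp*, a desmosome-associated membrane protein of p53-dependent death, was at −0.40 (adjusted p = 6.80e-04). *Ei24*, an endoplasmic reticulum protein of autophagy and death, was at −0.42 (adjusted p = 6.66e-04). *Phlda3*, which encodes a PH-domain inhibitor of AKT, was higher by 0.29 (adjusted p = 0.00210). *Aen*, an apoptosis-enhancing nuclease, was at 0.27 and lay just outside the test (adjusted p = 0.0502).

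Of the stress and metabolism genes, *Sesn1* had the lowest log2 fold change of the 36, close to that of *Trp53inp1*. Sestrins lower reactive oxygen species and restrain mTORC1, the growth kinase complex. *Sesn1* had log2 values of 10.21, 9.94 and 9.90 in M0505 cells and 8.09, 7.86 and 7.93 in STOSE cells. The 2 lines were well apart, and the gene was 4.17-fold lower in STOSE cells (−2.06 on the log2 scale with a standard error of 0.10, and an adjusted p of 7.14e-07 in limma). It ranked 475 among the 1548 genes called lower. *Sesn2* was higher in STOSE cells by 0.51 (standard error 0.15, adjusted p = 0.0178). Its values were 8.65, 8.23 and 8.19 in M0505 cells and 9.12, 8.76 and 8.71 in STOSE cells, and the highest M0505 array lay just below the lowest STOSE array. It missed the test without M0505 replicate 2 (0.44, adjusted p = 0.0692 in limma) or replicate 3 (0.43, adjusted p = 0.0674).

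*Zmat3*, an RNA-binding zinc finger protein that controls splicing and messenger RNA stability, was lower in STOSE cells by less than 2-fold (−0.55, standard error 0.08, limma adjusted p = 4.64e-04). *Dram1*, a lysosomal membrane protein of autophagy, was at −0.24 (adjusted p = 0.0147). *Ephx1*, the microsomal epoxide hydrolase, was at −0.19 (adjusted p = 0.0136), and its sign turned after centring on the median of all genes (0.01).

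None of the 4 genes of DNA repair and nucleotide supply was past the threshold, against 12.5% of all genes. All 4 had log2 fold changes below 0, against 39.3% of all genes. *Polk*, a translesion DNA polymerase, ranged from 8.78 to 8.92 in M0505 cells and from 8.31 to 8.38 in STOSE cells, with a log2 fold change of −0.54 (SE 0.06, adjusted p = 1.28e-04 in limma). *Ddb2*, a sensor of ultraviolet damage in nucleotide excision repair, was at −0.47 (adjusted p = 0.00260). *Xpc*, the other damage sensor of that pathway, was at −0.19 (adjusted p = 0.0211). *Rrm2b*, which encodes the p53-inducible subunit of ribonucleotide reductase, was at −0.10 and did not pass the test (adjusted p = 0.179). The signs of *Xpc* (0.01) and *Rrm2b* (0.10) turned after centring on the median of all genes.

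Several members have a close relative among the 36, and 6 such pairs were compared by the difference between their log2 fold changes. In 4 pairs the per-array difference between the genes did not overlap between the lines. *Sesn1* fell relative to *Sesn2* by 2.57 on the log2 scale (−2.57, standard error 0.09). *Ccng2* was below *Ccng1* by a difference of 1.60 (standard error 0.10). *Btg2* was below *Btg1* by 1.50 (standard error 0.15). *Plk2* was above *Plk3* by 1.96 (standard error 0.10). For each of these the two-sided exact permutation p was 0.1, the smallest that 3 against 3 arrays allow, and 0.15 after adjustment over the 6 pairs. *Gadd45a* and *Gadd45b* differed by 0.04 (standard error 0.17, exact permutation p = 0.9), and *Mdm2* and *Mdm4* by 0.16 (standard error 0.12, exact permutation p = 0.2).

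**Figure D3:**
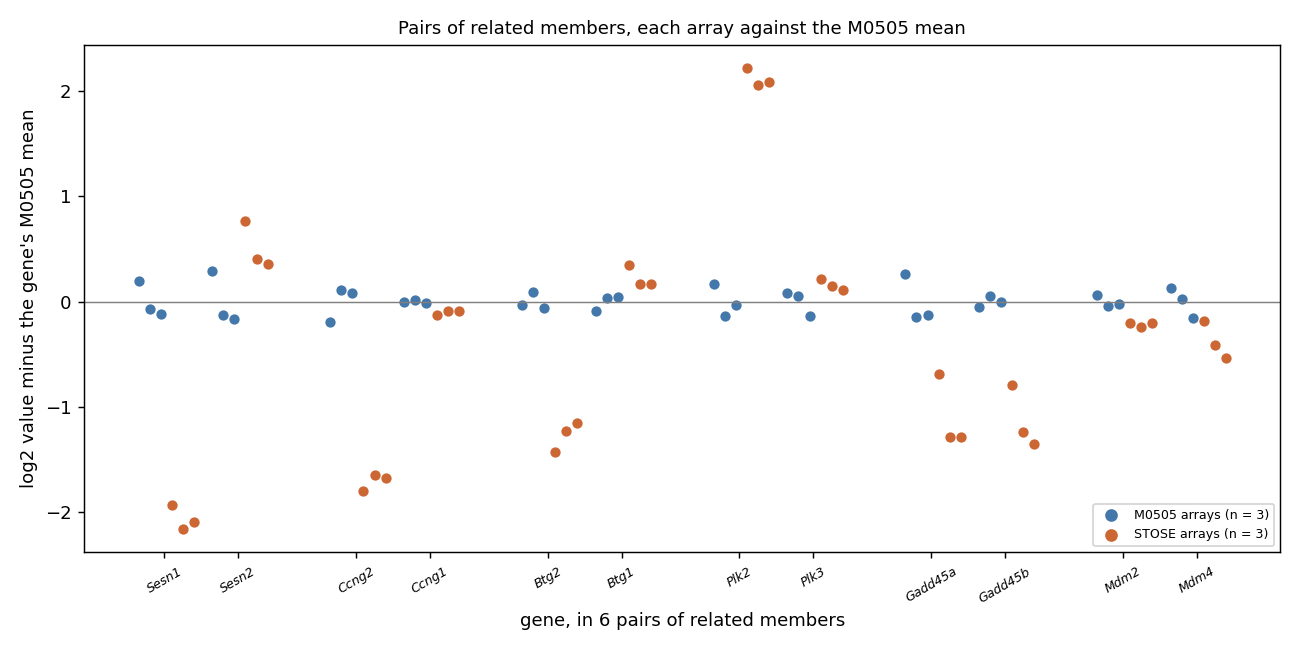
Log2 value minus the M0505 mean of the same gene (vertical axis) on each M0505 array (blue) and STOSE array (orange) for 6 pairs of related members (horizontal axis). *Sesn1*, *Ccng2*, *Btg2* and *Plk2* moved by over 1 log2 unit while their relatives stayed within 1 unit of the M0505 mean.

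Other genes of the pathway were read from lists of 20 upstream regulators and 28 further targets. Of the regulators 2 were called higher and 2 lower (10% each, against 4.90% and 7.59% of all genes). The median log2 fold change of the regulators was 0.11, against 0.08 for all genes. *Chek1*, a kinase that phosphorylates p53 after replication stress, was higher by 1.12 (standard error 0.07), and *Hipk2*, a kinase that primes p53 for death signaling, by 1.04 (standard error 0.07). *Cdkn2a*, whose ARF product inhibits MDM2, was lower (−2.54, standard error 0.10). Its value is for the gene as a whole, not for ARF alone. The STOSE mean of *Cdkn2a* was close to background, with 1.59% of the olfactory receptor probe sets brighter. *Rchy1*, a ubiquitin ligase for p53, was also lower (−1.10, standard error 0.06). Of the 28 further targets 5 were called higher and 5 lower (17.9% each, against 4.90% and 7.59% of all genes), and their median was −0.04. The 5 higher genes were *Thbs1* (3.38), an antiangiogenic matrix protein, *Pltp* (2.76), *Notch1* (1.79), *Casp1* (1.59) and *Polh* (1.24), a translesion polymerase. The lower genes included *Steap3* (−1.86), a metalloreductase of iron uptake, *Fdxr* (−1.18), *Ptprv* (−1.11) and *Ak1* (−1.09). *Cdkn1a*, the p21 cell cycle inhibitor and a classic p53 target, was named after its values were seen. It ranged from 11.09 to 11.13 in M0505 cells and from 11.03 to 11.08 in STOSE cells, with a log2 fold change of −0.06 (standard error 0.05) that did not pass the test (limma adjusted p = 0.403).

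**Figure D4:**
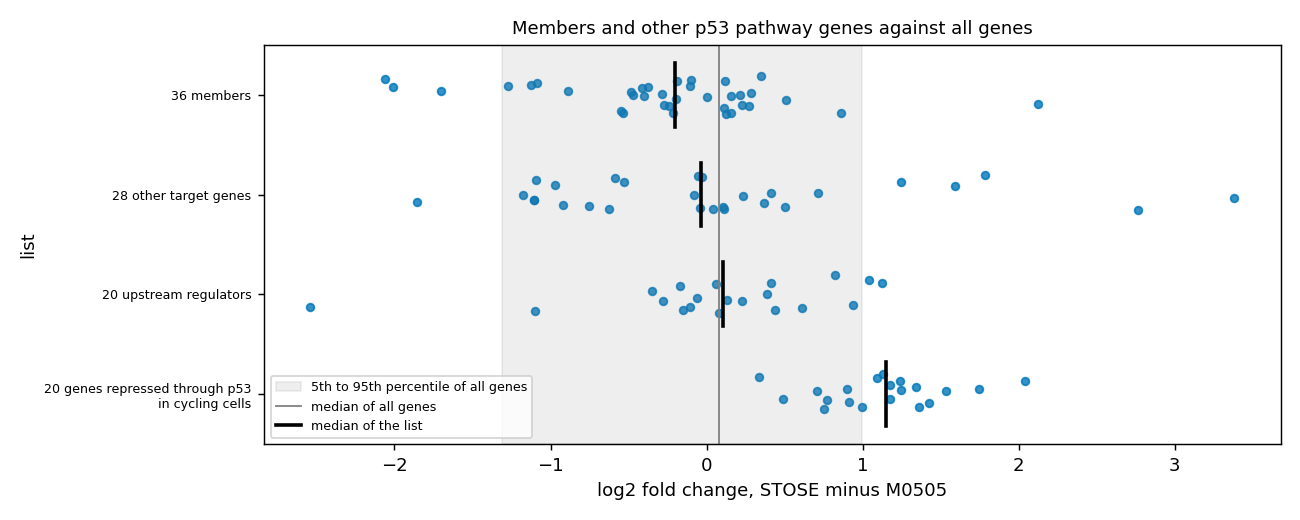
Log2 fold change (horizontal axis, STOSE minus M0505) of the 36 members, 28 further targets, 20 upstream regulators and 20 genes repressed through p53 in cycling cells (vertical axis), with 1 dot per gene spread at random within its row. Black lines mark the medians of −0.20, −0.04, 0.11 and 1.15, the gray line marks the median of all genes (0.08), and the shaded band runs from −1.31 to 0.99, their 5th to 95th percentile.

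Array values have no read depth, and the number of arrays limits the precision. Over genes, which do not count as replicates, arrays of a line correlated at a Pearson r of 0.997 to 0.999, and arrays of different lines at 0.943 to 0.950. The labelled tissue was checked against 9 surface epithelium markers, of which 8 were lower in STOSE cells at the adjusted p. *Krt8* and *Krt19* fell most, while *Upk3b*, *Wt1*, *Msln* and *Krt18* stayed above a log2 value of 10 in both lines, and *Lhx9* was near background. The summed level of these markers was 14.35 to 14.43 (log2) on M0505 arrays and 13.30 to 13.42 on STOSE arrays. For markers of other cells, the means of both lines lay below 4.74, the 95th percentile of the olfactory receptors, for 6 of 9 granulosa and steroidogenic, 2 of 6 endothelial, 5 of 7 leukocyte and 1 of 6 fibroblast genes. The summed levels of these lists ran from 9.86 to 10.03 and 7.88 to 8.06 in M0505 and STOSE cells for granulosa, 9.75 to 9.88 and 7.20 to 7.26 for endothelial, 9.72 to 10.10 and 7.92 to 8.14 for leukocyte, and 12.30 to 12.40 and 12.29 to 12.35 for fibroblast markers. *Inha*, *Kdr* and *Cd68* were high in M0505 cells and lower in STOSE cells, and *Ptprc* and *Emcn* were under that percentile in both lines. Among fibroblast markers, *Thy1* (log2 fold change 1.49), *Col1a1* (0.95) and *Pdgfra* (0.84) were higher in STOSE cells. *Col1a2* (−2.45) and *Dcn* (−0.45) were lower, and *Lum* was under that percentile in both lines. The part of these shifts in the results above was not tested.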

How the data were processed

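Total RNA of 3 M0505 and 3 STOSE samples was hybridized to Affymetrix Mouse Gene 1.0 ST arrays. The authors deposited 1 log2 value per probe set and array, made with robust multi-array averaging (RMA) and Affymetrix Expression Console per the submitters' processing notes. The version and the genome build are not given in the sources used here. The same table holds the mean of each line and the fold change between them, which were not used. Of 28944 probe sets, 23530 carried a symbol. Each of 20405 genes was represented by its probe set with the highest mean.

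The lines were compared in limma 3.58.1 (lmFit, then eBayes; R 4.3.3), without covariates and with Benjamini-Hochberg adjustment over all genes. The code was checked on simulated data with normal noise, in which every planted change was well above the fold threshold. It recovered 100% of 200 changed genes among 20405, with 0 false calls. Changes near the threshold, such as those of *Btg2*, *Gadd45a* and *Gadd45b*, were not simulated, so this says nothing about their reliability. Members and lists were chosen with earlier results of these data known. Members past the threshold, *Trp53*, *Mdm2* and *Mdm4* were given in full, and the others by fold change. Other pathway genes were named where past the threshold, except 1 that is not reported here. Chromosomes and promoters came from RefSeq GRCm38.p6, matched by symbol for 36 and 27 members. Background was judged from 1134 olfactory receptor probe sets. Alternatives covered normalization, dim genes, probe sets, test, fold threshold, left-out arrays and the replicate block. The background correction was not varied, since no probe-level signal was used here.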

Additional observations from a re-analysis of the deposited data

How the results depend on the processing

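The fold threshold moved the counts most. Without it 7 members were higher and 20 lower, 19 of the other pathway genes were higher and 15 lower, and all 20 cycling-cell genes were higher. Of all genes 31.6% were then higher and 24.8% lower. At 4-fold, 2 members (*Sesn1* and *Trp53inp1*) were lower, 2 other pathway genes were higher and 1 was lower, and 1 cycling-cell gene was higher. Under limma's treat test against 2-fold, 3 members (without *Btg2*, *Gadd45a* and *Gadd45b*) and 2 other pathway genes were lower. In that test 5 cycling-cell genes were higher, and of all genes 2.5% were higher and 4.9% lower. The shares of all genes at 4-fold, and at 2-fold after centring, were not counted. Centring each array on the median of all genes left 2 members higher (*Plk2* and *Gtse1*) and 4 lower, 9 other pathway genes higher and 2 lower, and 15 cycling-cell genes higher, and put the median of the members at −0.0037. Small log2 fold changes turned in sign under that centring for *Ccng1* (0.10), *Rrm2b* (0.10), *Xpc* (0.0113) and *Ephx1* (0.0067), and for *Rrm2b* after a further quantile normalization (0.0181). Centring on the median of all probe sets, added after the data were seen, turned none. *Apaf1* turned in sign with single arrays left out, from −0.0315 to 0.0302. Whichever array was left out, 6 of the 7 members past the threshold stayed past it, *Gadd45a* being the exception. Of the 27 members past the adjusted p alone, 7 missed it after centring (*Mdm2*, *Mdm4*, *Tnfrsf10b*, *Tob1*, *Xpc*, *Dram1* and *Ephx1*), 5 with some single array left out (*Mdm4*, *Btg1*, *Tob1*, *Xpc* and *Sesn2*) and 5 under the methods' t-test after Benjamini-Hochberg adjustment (*Mdm4*, *Fas*, *Btg1*, *Tob1* and *Sesn2*). The arrays concerned were M0505 replicates 1 and 2 and STOSE replicate 1 for *Btg1*, M0505 replicates 2 and 3 and STOSE replicate 2 for *Tob1*, and M0505 replicate 2 and STOSE replicates 1 and 3 for *Xpc* (adjusted p from 0.0528 to 0.0834). Other members gained under an alternative. Centring brought *Trp63*, *Trp73*, *Bbc3*, *Apaf1*, *Aen*, *Plk3* and *Rprm* past the adjusted p as higher (0.0017 to 0.0144 in limma). *Bbc3* (0.0039), *Aen* (0.0137) and *Plk3* (0.0437) also passed it after the further quantile normalization. Without the dimmest 50% of genes 6 members, *Ccng2* among them, were not tested. Full response elements were present for 2 genes with at most 1 mismatch (7.41%, against 0.718% of all genes) and for 11 with at most 3 (40.7%, against 17.4%). For each of these results the cause was not tested.

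Whether the replicate numbers pair the samples could not be told. Deviations from the line means correlated at 0.26, 0.04 and 0.25 for numbers 1, 2 and 3, against −0.29 to 0.12 for unlike numbers. STOSE replicate 2 correlated best with M0505 replicate 3. With the replicate block, 1 member was higher and 6 were lower, as without it. At the adjusted p alone *Btg1* missed the test with the block (0.0514) and *Aen* passed it (0.0177).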

Other observations

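In both lines replicate 1 was the highest array for 10 of the 36 members (27.8%), against 18.4% of all genes. These were *Trp53*, *Mdm4*, *Aen*, *Gadd45a*, *Gtse1*, *Plk2*, *Plk3*, *Sesn1*, *Sesn2* and *Zmat3*. For *Sesn2* the gap between replicate 1 and the next array was of the size of the difference between the lines, with 8.65 against 8.23 in M0505 cells and 9.12 against 8.76 in STOSE cells. The sample labels do not say whether same-numbered cultures or arrays were handled together.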
